A study of Mus musculus with 6 samples.

Results

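The ubiquitin-conjugating enzymes, or E2 enzymes, were examined in the messenger RNA of mouse metaphase II eggs, the ovulated stage that waits for sperm. They were taken as every gene of the deposited table whose symbol starts with Ube2, which gave 37 of 24062 genes. The eggs came from superovulated 8-week-old females that carried the multicolour histone transgene HISRainbow and the Cre recombinase Figla-iCre, which acts in oocytes. All 3 groups share both, and each egg was assigned to a group by its colour under a confocal microscope. In the first group eggs expressed unmutated H3.3 tagged with eGFP (H3.3). In the second they expressed H3.3K27R tagged with mCherry (K27R), in which lysine 27 is replaced by arginine. In the third they expressed H3.3R26K tagged with eCFP (R26K), in which arginine 26 is replaced by lysine. The tag differed with the substitution, so the effects of tag and substitution cannot be told apart, and the labels name no deletion of the endogenous H3.3 genes. Each group had 2 libraries, described as biological replicates; the eggs and females behind each library are not stated in the labels, and p-values here reflect only how these libraries spread, which may be technical.

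Ubiquitin is a small protein that is attached to other proteins in a relay. An E1 enzyme activates it, an E2 carries it on a cysteine, and an E3 ligase brings the loaded E2 to a target. The E2 often decides what kind of ubiquitin chain is built, and some E2 enzymes carry related modifiers such as NEDD8 instead. Eggs depend on this relay because exit from metaphase II needs destruction of cyclin B and securin, and because many stored maternal proteins are degraded after fertilization. Of the 37 genes, 36 are E2 enzymes or their variants, and Ube2cbp encodes a protein that binds the E2 Ube2c and is not itself an E2.

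The coding sequence around the active site is shown for 9 members on which the results below turn, because it is the feature that defines the family and because it is about as long as a single sequencing read. Sequences were read from the GENCODE M21 transcripts of mm10, in the longest coding sequence of each gene, and capitals mark the codons for histidine, proline and asparagine and, further on, the codon of the cysteine that holds ubiquitin.
Ube2d3: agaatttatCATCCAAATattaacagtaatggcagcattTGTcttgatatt
Ube2d1: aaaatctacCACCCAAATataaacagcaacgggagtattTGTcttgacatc
Ube2t: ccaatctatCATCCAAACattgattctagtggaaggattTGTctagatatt
Ube2k: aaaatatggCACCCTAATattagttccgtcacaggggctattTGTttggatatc
Ube2h: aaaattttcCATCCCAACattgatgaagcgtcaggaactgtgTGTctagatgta
Ube2g1: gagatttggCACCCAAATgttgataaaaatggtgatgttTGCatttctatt
Ube2g2: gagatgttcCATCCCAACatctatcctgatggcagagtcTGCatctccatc
Ube2c: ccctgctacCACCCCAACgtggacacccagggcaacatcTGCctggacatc
Ube2s: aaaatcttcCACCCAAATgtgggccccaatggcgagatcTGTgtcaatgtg
Each stretch runs from 9 bases before the first capital to 9 bases after the last. These 3 codons in a row were found in 23 of the 37 coding sequences. The cysteine codon stood 10 codons after the histidine codon in 20 genes and 11 codons after it in 2, Ube2k and Ube2h, and in Ube2u at neither place. The 14 genes without the triplet included Ube2v1 and Ube2v2, which are E2 variants known to lack the active cysteine, the UBE2E group (Ube2e1, Ube2e2 and Ube2e3), the distant members Ube2j1, Ube2j2, Ube2q1, Ube2q2, Ube2ql1, Ube2o, Ube2w and Ube2z, and Ube2cbp. Against the stretch of Ube2d3, that of its paralogue Ube2d1 matched at 40 of 51 bases, that of Ube2t at 39, that of Ube2g1 at 31, that of Ube2s at 30, that of Ube2c at 28 and that of Ube2g2 at 27. The stretch of Ube2d2b, which is not shown, was the closest, at 48. Reads were 50 bases long. The longest run shared by the coding sequences of Ube2d3 and Ube2d1 was 11 bases, and by those of Ube2d3 and Ube2d2a 42 bases, both shorter than a read. These runs are exact matches only and do not show where a read with mismatches would be placed.

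Total counts ranged from 10803477 to 12748821 in the H3.3 and K27R libraries and were 39603440 and 33786225 in R26K. Levels are given as CPM (counts scaled to a common library size), and 3 counts stood for 0.230 to 0.284 CPM in H3.3 and K27R and for 0.0813 and 0.0906 CPM in R26K. Markers of the egg had counts for 11 or 12 of 12 genes in each library, with Gdf9 at 11020 to 16100 CPM. Their summed level was lowest in R26K, at 37040 and 34360 CPM, against 39770 to 49240 in the other 4 libraries. In R26K against H3.3, 2 of 12 (16.7%) were lower at an unadjusted p under 0.05, beside 4.14% of all tested genes. DESeq2 also called 2 of the 12 lower, beside 418 lower of all 9012 genes with an adjusted p there. Of 26 markers of cumulus and granulosa cells, 6 to 20 had counts, with a summed level of 1021 and 1893 CPM with H3.3, 2007 and 1428 with K27R, and 2109 and 1992 with R26K, of which Serpine2 made up most; Lhcgr, Ereg and Areg had none. Of 18 tested, 4 (22.2%) were higher in R26K than in H3.3 at an unadjusted p under 0.05, beside 17.6% of all tested genes, and none lower. DESeq2 called 2 of 13 (15.4%) higher there, beside 1212 higher of all 9012 genes with an adjusted p. In K27R against H3.3, 1 was higher and 1 lower at that unadjusted p (11.1%, beside 7.12%). DESeq2 called 2 higher and 2 lower of 13 there (30.8%, beside 7.8%). No marker of any list passed in edgeR. Of 20 genes that mark blood, immune, stromal or epithelial cells, 3 to 6 had counts, summing to 26.5 to 174 CPM, and 9 had none, the 4 haemoglobin genes and Ptprc among them. The part of these markers in the results was not tested. In bulk RNA, fewer cells of a type and less RNA per cell cannot be told apart.

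The libraries differed in how much they detected. A count was found for 26 and 24 of the 37 Ube2 genes with H3.3, for 31 and 27 with K27R, and for 31 and 34 with R26K. After every library was thinned at random to 10803477 counts, R26K replicate 2 had 33 and the others kept their numbers. Among all genes that averaged 10 to 20 CPM elsewhere, 32.2% and 35.8% lacked a count with H3.3, 5.6% and 33.7% with K27R, and 1.7% and 1.3% with R26K. A count of 0 in H3.3 or in K27R replicate 2 therefore does not bound a level. There were 3 Ube2 genes with no count in any library, Ube2dnl1, Ube2dnl2 and Ube2ql1. A count in all 6 libraries was found for 20.

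**Figure D1:**
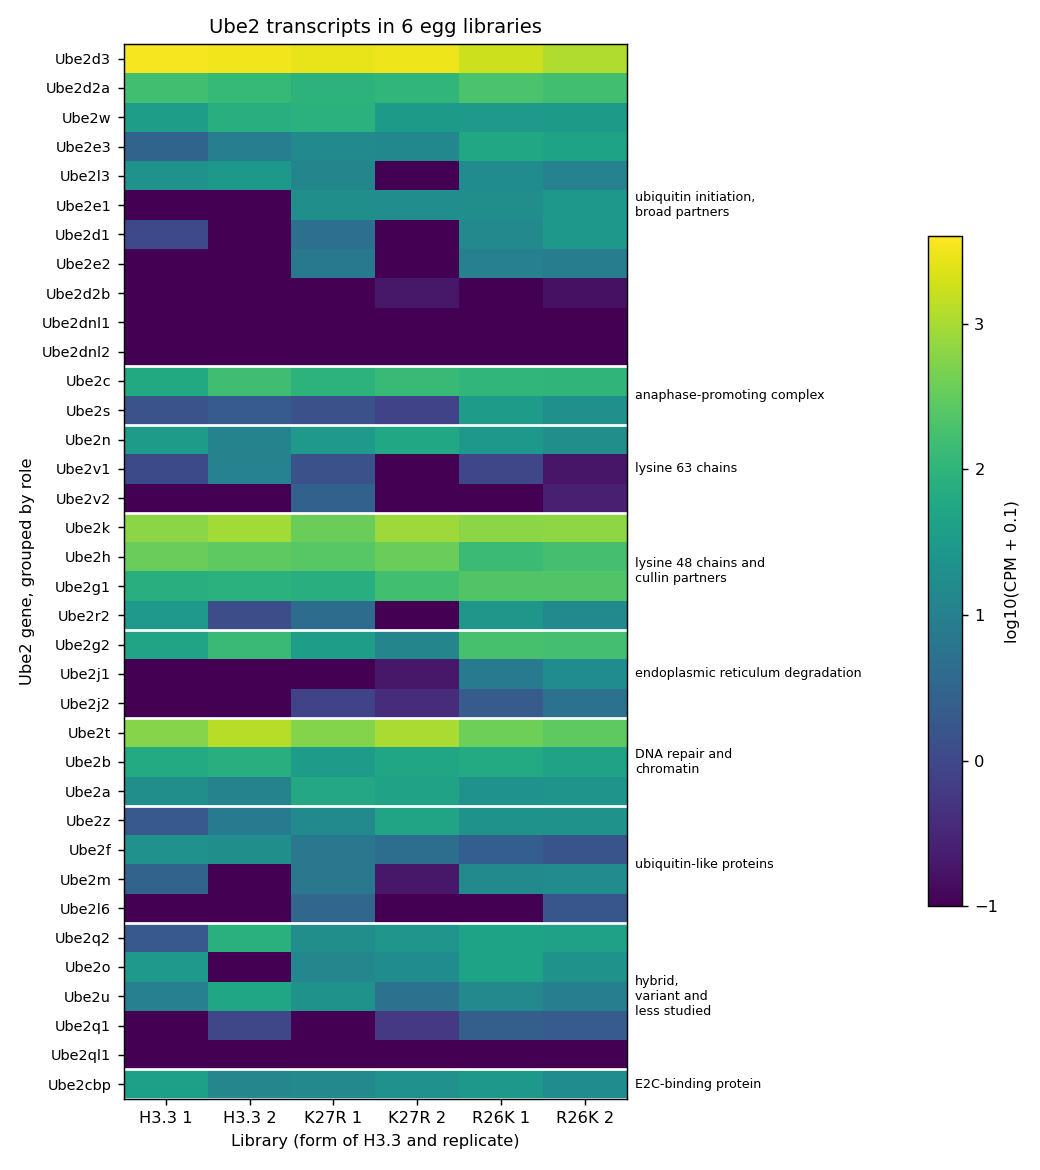
Level of 36 of the 37 Ube2 genes (1 is not reported by name; rows, grouped by role) in the 6 libraries (columns), as log10 of CPM plus 0.1, so that the darkest colour stands for no count. Ube2d3, Ube2k and Ube2t are bright in every library, and the dark cells lie mostly in the H3.3 libraries and K27R replicate 2.

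A few E2 genes held most of the counts. Ube2d3, of the UBE2D group of E2 enzymes that work with very many E3 ligases, took 60.2% and 48.2% of the summed Ube2 level with H3.3, 59.2% and 50.7% with K27R, and 42.3% and 32.5% with R26K. The summed level was 5702.5 and 6705.5 CPM with H3.3, 4649.5 and 6121.0 with K27R, and 4208.2 and 3401.1 with R26K. Both R26K sums thus lay below the other 4. Without Ube2d3 the sums were 2267.8 and 3472.4 CPM with H3.3, 1894.8 and 3019.2 with K27R, and 2428.0 and 2295.9 with R26K, and the groups overlapped.

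**Figure D2:**
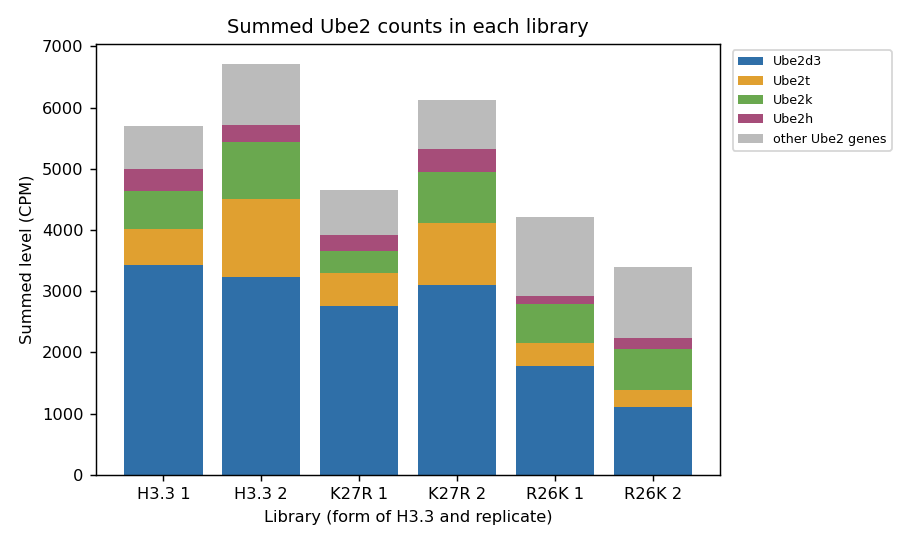
Summed level of the Ube2 genes in each library in CPM, split into Ube2d3, Ube2t, Ube2k, Ube2h and all others. The R26K bars, 4208.2 and 3401.1 CPM, are the lowest, and their Ube2d3 segments are the shortest.

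Compared between genes, levels were divided by exon length (RPKM, CPM per kilobase, with the union of GENCODE basic exons). On this scale Ube2t led with a mean over the 6 libraries of 610.4 RPKM, from 258 to 1142, followed by Ube2d3 with 549.5 RPKM, from 236.5 to 735. The ranges of these 2 overlapped. Ube2k came next at 138 RPKM, from 74.4 to 189.6, below every value of both. Then followed Ube2h (56.4 RPKM), Ube2d2a (56.1), Ube2g2 (48.2), Ube2c (41.3), Ube2g1 (36.3) and Ube2b (30.3), whose ranges overlapped from each to the next. The lowest tested member was Ube2q1, at 0.286 RPKM. The exon length used by the egg transcript of each gene was not measured, so this order depends on the annotation. By CPM, 10 members averaged at least 50 and 12 averaged 10 to 50.

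Of the 37 genes, 32 passed the filter on low counts and were tested, and 5 did not (Ube2v2, Ube2d2b and the 3 without counts). Members below 50 CPM are given below by library mostly because their values, once seen, differed between libraries. The first comparison asked which E2 transcripts are at another level in R26K eggs than in H3.3 eggs. None of the 32 passed edgeR's quasi-likelihood test at a Benjamini-Hochberg adjusted p under 0.05, against 0.619% of all 10667 tested genes; the lowest adjusted p of a member was 0.127. An unadjusted p under 0.05 was reached by 7 members, 21.9% of those tested, and by 21.7% of all tested genes. Of the 7, 4 were higher in R26K (17.6% of all genes) and 3 lower (4.14%). Among the higher ones, Ube2j1 and Ube2j2 passed the filter on low counts only through their R26K libraries. DESeq2 called 4 members higher and 4 lower of 29 with an adjusted p. Of all 9012 genes with one it called 18.1% in either direction, 1212 higher and 418 lower. In 14 members both R26K libraries lay above both H3.3 libraries, against 44.9% of all tested genes, and in 7 both lay below, against 15.2%. No test of the difference between shares was made. The median log2 fold change of the members was 0.39 and that of all tested genes 0.66; over those with a mean of at least 10 CPM the medians were 0.04 and 0.08.

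K27R against H3.3 gave fewer differences. No member passed in edgeR (lowest adjusted p = 0.522, and 0.0% of all genes passed). An unadjusted p under 0.05 was reached by 1, against 7.12% of all genes (1 higher against 6.05%, 0 lower against 1.07%). DESeq2 called 1 of 29 higher. Of all 8805 genes with an adjusted p it called 7.8% in either direction, 534 higher and 153 lower. Both K27R libraries lay above H3.3 in 5 members (15.9% of all genes) and below in 7 (9.62%). In K27R against R26K no member passed in edgeR (lowest adjusted p = 0.254, against 0.375% of all genes). An unadjusted p under 0.05 was reached by 4, against 13.2% of all genes (3 higher against 3.43%, 1 lower against 9.82%). DESeq2 called 1 higher and 2 lower of 29. Of all 8805 genes with an adjusted p it called 8.57% in either direction, 247 higher and 508 lower. Both K27R libraries lay below R26K in 15 members (36.3% of all genes) and above in 6 (17.5%). The 3 comparisons share libraries in pairs, so their values are not independent of each other.

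Among the E2 enzymes that place the first ubiquitin with many partners, Ube2d3 (chromosome 3, 135438149 to 135468198, mm10) stood at 3435 and 3233 CPM with H3.3, 2755 and 3102 with K27R, and 1780.2 and 1105 with R26K. Both R26K libraries were the lowest, and the 3 groups did not overlap. The log2 fold change of R26K against H3.3 was -1.21 ± 0.28 (SE, 2 libraries per group, edgeR adjusted p = 0.127), and that of K27R against R26K was 1.02 ± 0.27 (adjusted p = 0.254). Without R26K replicate 1 these became -1.62 (edgeR adjusted p = 0.0077) and 1.44 (0.0355) and passed, in a fit where R26K has 1 library that is assumed to vary like the other groups, and without R26K replicate 2 they were -0.91 and 0.72 (0.543 and 1.0). After correcting for GC and length, an alternative added after the data were seen, they were -0.64 (edgeR adjusted p = 0.287) and 0.53 (0.606). DESeq2 called both, with adjusted p of 0.00020 and 0.0059. Its paralogue Ube2d2a, of the same group, was at 159.7 and 118 CPM with H3.3, 93.0 and 106 with K27R, and 195 and 162 with R26K, so that R26K lay at the top for it and at the bottom for Ube2d3. Of the 50-base words in the transcripts of Ube2d3, 14.9% also occur in those of other genes, 8.8% in those of Spopl, and 15.9% for Ube2d2a, in those of Gm9762; how reads with several places were counted is not stated in the labels.

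Of the lower members of this role, Ube2d1, Ube2e2 and Ube2e3 had their highest levels in R26K. All the lower members were chosen for mention after their values were seen. Ube2d1, another UBE2D paralogue, was at 0.918 CPM and no count with H3.3, 4.64 CPM and no count with K27R, and 14.8 and 28.2 CPM with R26K. Ube2e3, of the UBE2E group with an extended amino terminus, was at 2.98 and 9.25 CPM with H3.3, 16.1 and 13.8 with K27R, and 55.5 and 46.9 with R26K. The 3 groups did not overlap, in the order H3.3, K27R, R26K. Its log2 fold change of R26K against H3.3 was 3.07 ± 1.28 (edgeR adjusted p = 0.233; DESeq2 0.0271).

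Ube2e1 was not counted with H3.3 in either replicate and stood at 19.5 and 17.8 CPM in K27R and at 18.5 and 27.97 CPM in R26K. Set against a floor of 3 counts per H3.3 library, its mean was 95.9-fold that floor in R26K and 77.0-fold in K27R. These folds cover counting error only and do not bound the difference in level. Of all genes at 10 to 20 CPM, 32.2% and 35.8% also had no count in the H3.3 libraries. In edgeR the adjusted p was 0.151 in R26K and 0.522 in K27R, and DESeq2 called both (7.4e-06 and 2.4e-05). Of its 50-base words 59.0% occur in transcripts of other genes, 49.3% in Nkiras1, whose exons overlap it on the other strand. Nkiras1 had 310.3 and 169 CPM with H3.3, 309 and 557 with K27R, and 298 and 269.9 with R26K, so it was counted in the H3.3 libraries. Whether counting used the strand is not stated in the labels. The remaining UBE2E gene, Ube2e2, had no count with H3.3, 7.16 CPM and no count with K27R, and 10.03 and 8.49 CPM with R26K. Ube2w, which modifies amino termini, was at 38.3 and 80.1 CPM with H3.3, 84.8 and 31.9 with K27R, and 30.8 and 32.0 with R26K. Ube2l3, which serves ligases of the RBR and HECT kinds, was at 23.3 and 28 CPM with H3.3, 12.9 CPM and no count with K27R, and 17.1 and 10.7 CPM with R26K; its exons overlap Ydjc, which had no count.

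The anaphase-promoting complex, the ligase that ends metaphase arrest, uses a pair of E2 enzymes: Ube2c starts chains and Ube2s extends them. Ube2c (chromosome 2, 164769898 to 164778822) was at 63.1 and 153 CPM with H3.3, 95.6 and 124 with K27R, and 105 and 104 with R26K. The H3.3 libraries enclosed all the others, and the groups overlapped. Its log2 fold change was -0.05 ± 0.54 in R26K against H3.3 (edgeR adjusted p = 0.977) and became -1.75 (0.272) with the GC and length correction; that of K27R against R26K went from 0.08 to 1.63 (0.454). Without H3.3 replicate 2 the first was 0.73. Ube2s (chromosome 7, 4794546 to 4812590), named after its values were seen, was at 1.38 and 2.12 CPM with H3.3, 1.301 and 0.759 with K27R, and 33.6 and 19.96 with R26K. Both R26K libraries stood far above the other 4. In counts these are 18 and 25, 16 and 8, and 1239 and 661, and no 50-base word of Ube2s occurs in another gene. The log2 fold change was 3.93 ± 1.91 for R26K against H3.3, while K27R against R26K gave -4.69 ± 1.98; in edgeR neither passed (adjusted p = 0.268 and 0.396), while DESeq2 called both (0.0271 and 0.0095). Ube2cbp, the protein that binds Ube2c, was at 39.5 and 13.2 CPM with H3.3, 14.6 and 21.4 with K27R, and 28.9 and 17.2 with R26K, with all groups overlapping.

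**Figure D3:**
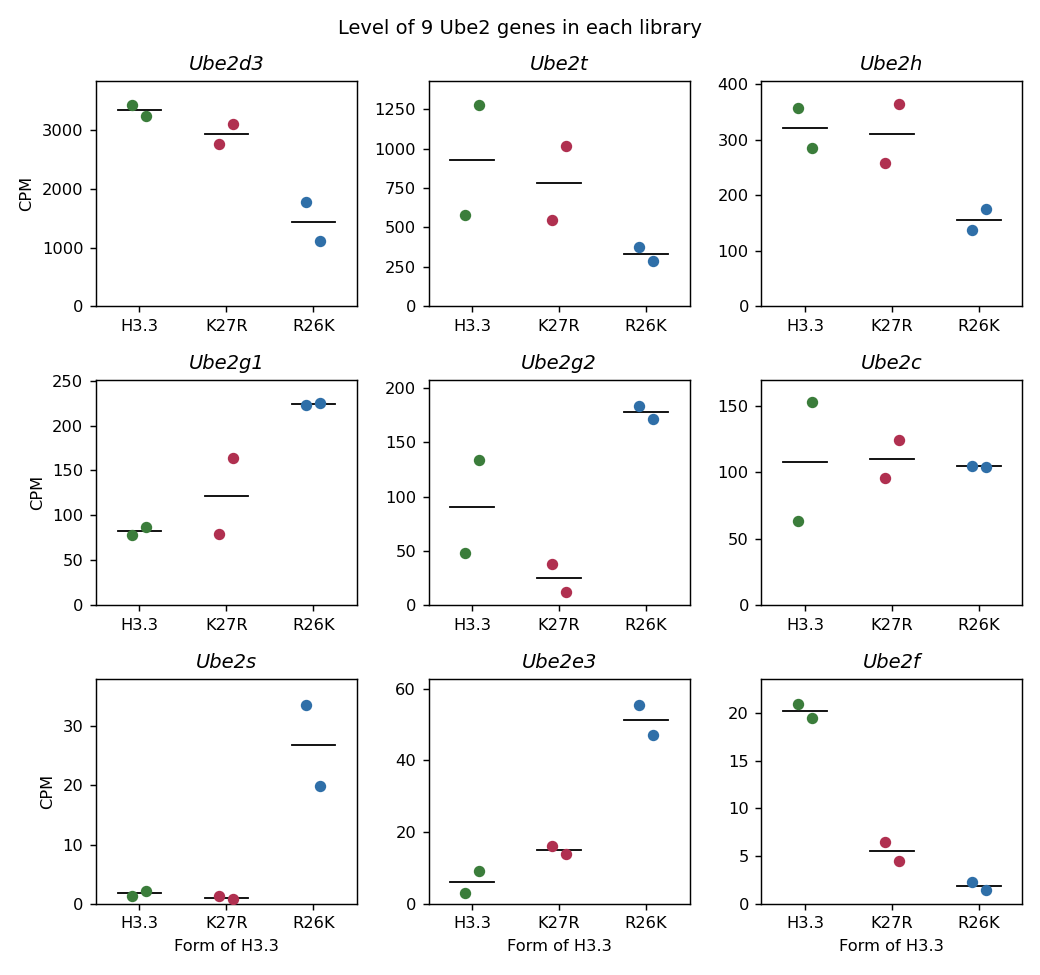
Level in CPM of 9 Ube2 genes in each library (points) with the mean of each group (line); each panel has its own axis from 0. Ube2d3, Ube2t and Ube2h are lowest in both R26K libraries, Ube2g1, Ube2g2, Ube2s and Ube2e3 highest there, and Ube2c overlaps between all groups.

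Lysine 63 chains, which signal in DNA damage and inflammation rather than degradation, are built by Ube2n with a variant partner, Ube2v1 or Ube2v2. Ube2n was at 35.0 and 11.4 CPM with H3.3, 30.2 and 55.3 with K27R, and 28.4 and 18.7 with R26K. Ube2v1 was at 0.995 and 10.7 CPM with H3.3, 1.301 CPM and no count with K27R, and 0.868 and 0.0906 CPM with R26K. Ube2v2 had counts in K27R replicate 1 (2.60 CPM) and R26K replicate 2 (0.151 CPM), and none in the other libraries. Ube2n was counted in every library, Ube2v1 in 5 of 6 and Ube2v2 in 2. Ube2v1 shares 82.4% of its 50-base words with other genes, mostly with the overlapping Gm20431, so its level is uncertain.

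The E2 enzymes of lysine 48 chains, the signal for the proteasome, differed in which group had the most. Ube2k, which builds such chains by itself, was at 619.8 and 928 CPM with H3.3, 364 and 834 with K27R, and 627 and 670.2 with R26K, and the groups overlapped. Ube2h (chromosome 6, 30211289 to 30304539), the E2 of the CTLH ligase, was at 356 and 285 CPM with H3.3, 258 and 364 with K27R, and 137 and 175 with R26K. Both R26K libraries were the lowest, with a log2 fold change against H3.3 of -1.04 ± 0.33 (edgeR adjusted p = 0.213; DESeq2 0.0295) and of K27R against R26K of 0.997 ± 0.33 (edgeR adjusted p = 0.346). With the GC and length correction they were -1.78 (edgeR adjusted p = 0.159) and 1.63 (0.274). Of its 50-base words 45.8% occur in other genes, nearly all in Gm26526. Ube2g1 (chromosome 11, 72607283 to 72686481) was at 77.9 and 86.5 CPM with H3.3, 78.7 and 164 with K27R, and 223 and 225 with R26K. Its R26K libraries were the highest, with a log2 fold change of 1.45 ± 0.46 against H3.3 (edgeR adjusted p = 0.213; DESeq2 0.0723). Ube2r2, a cullin partner, was at 29.7 and 1.19 CPM with H3.3, 4.15 CPM and no count with K27R, and 26.7 and 14.9 CPM with R26K, so the H3.3 replicates differed more than the group means.

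The 3 members that serve degradation at the endoplasmic reticulum had their highest level in R26K. Both R26K libraries lay above both H3.3 libraries in each, as in 44.9% of all tested genes, and above both K27R libraries, as in 36.3%. Ube2j1 and Ube2j2 passed the filter on low counts only through their R26K libraries. Being highest in R26K was thus set by that filter for both, and they add nothing to the value of Ube2g2. Ube2g2 (chromosome 10, 77622275 to 77645993), was at 48.3 and 133 CPM with H3.3, 38.1 and 12.4 with K27R, and 184 and 171 with R26K. The groups did not overlap, with K27R lowest. The log2 fold change was 0.97 ± 0.74 for R26K against H3.3 (edgeR adjusted p = 0.496), -1.84 ± 0.76 (0.522) when K27R was set against H3.3 and -2.81 ± 0.79 (0.287; DESeq2 0.0095) when it was set against R26K. The first was 1.88 without H3.3 replicate 2 and 0.41 without H3.3 replicate 1. The second ranged from -0.94 without H3.3 replicate 2 to -2.87 without K27R replicate 1, and the third from -2.22 without K27R replicate 2 to -3.84 without K27R replicate 1. With the GC and length correction the first turned to -0.38, the second became -2.07 and the third -1.69. Ube2j1 and Ube2j2, which are anchored in the membrane, had no count in H3.3. Ube2j1 was at no count and 0.0948 CPM (1 count) in K27R and at 7.78 and 17.1 CPM in R26K, a mean of 51.2-fold the H3.3 floor. Ube2j2 was at 0.732 and 0.284 CPM in K27R and at 2.03 and 5.23 CPM in R26K, a mean of 15.0-fold that floor. Neither fold bounds the difference in level. Genes at 10 to 20 CPM were often missed in the H3.3 libraries, as given above, and Ube2j2 lies under that range in every library. DESeq2 called Ube2j1 in R26K against H3.3 (adjusted p = 0.0348), and edgeR neither (0.213 for both).

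Of the E2 enzymes of DNA repair and chromatin, Ube2t (chromosome 1, 134962565 to 134974162), which ubiquitinates the Fanconi anaemia proteins, was among the most abundant. It was at 580.4 and 1274 CPM with H3.3, 546 and 1020.1 with K27R, and 378 and 288 with R26K. Both R26K libraries were lowest, while H3.3 and K27R overlapped. The log2 fold change of R26K against H3.3 was -1.48 ± 0.48 (edgeR adjusted p = 0.213; DESeq2 0.0151) and of K27R against R26K 1.23 ± 0.48 (edgeR adjusted p = 0.346). The first was -0.80 without H3.3 replicate 2 and -1.94 without H3.3 replicate 1, and the second 0.71 without K27R replicate 2. With the GC and length correction they were -1.02 and 0.84. None of the 50-base words of Ube2t occurs in another gene. Ube2a and Ube2b are the mouse forms of yeast Rad6, which act on PCNA and histone H2B. Ube2b was at 64.6 and 79.9 CPM with H3.3, 35.0 and 51.5 with K27R, and 65.4 and 44.7 with R26K, with R26K overlapping both. Ube2a was at 18.5 and 11.5 CPM with H3.3, 59.8 and 45.5 with K27R, and 22.5 and 24.0 with R26K, highest in K27R, and did not pass in any comparison. Their coding sequences are identical at 77.6% of bases, with a longest shared run of 17 bases.

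**Figure D4:**
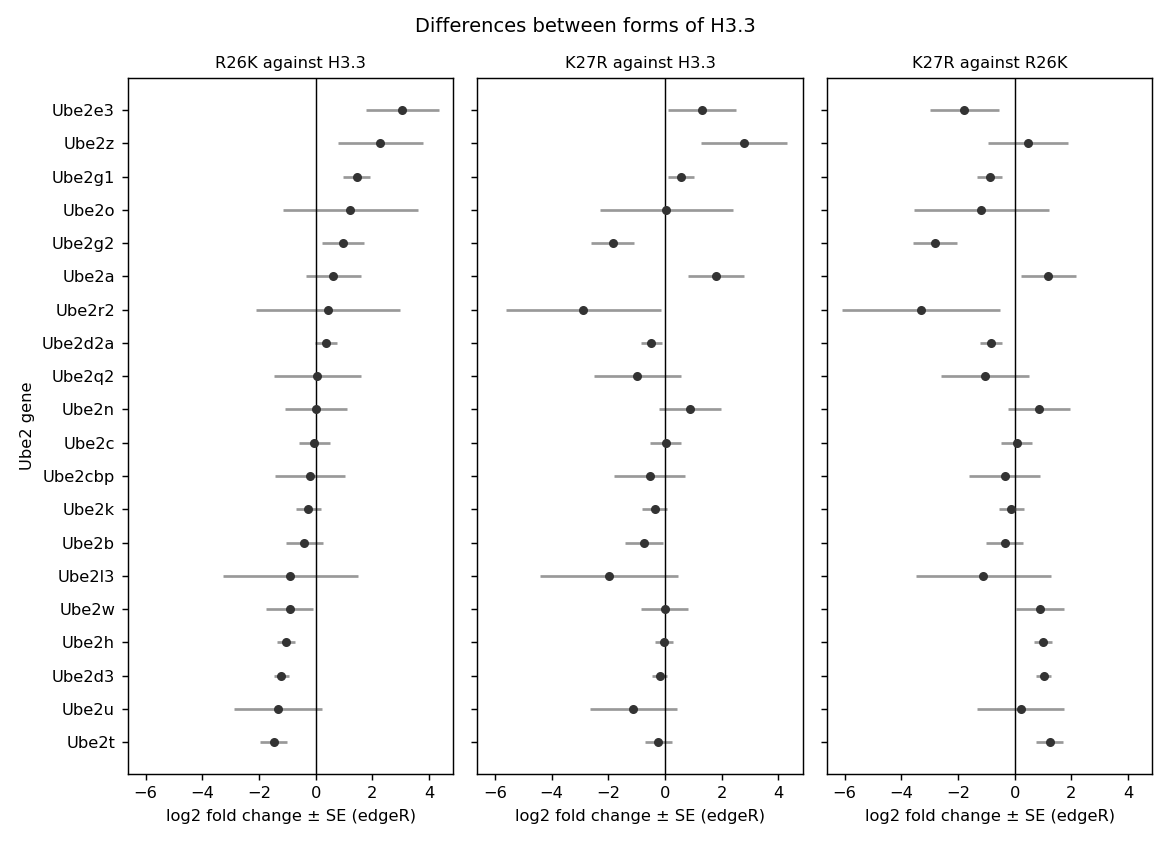
Log2 fold change with its SE from edgeR for 20 of the 22 Ube2 genes averaging at least 10 CPM (Ube2e1, which had no count in H3.3, and 1 gene not reported by name are not drawn), ordered by R26K against H3.3, in 3 comparisons. None passed the adjusted test, and Ube2d3, Ube2h and Ube2t are below 0 in R26K against H3.3 and above 0 in K27R against R26K.

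The members described here that carry related modifiers were low. NEDD8, which activates cullin ligases, has a pair of E2 enzymes. Ube2f was at 20.9 and 19.4 CPM with H3.3, 6.51 and 4.46 with K27R, and 2.28 and 1.48 with R26K. The 3 groups did not overlap, and the log2 fold change of R26K against H3.3 was -3.42 ± 1.89 (edgeR adjusted p = 0.325; DESeq2 0.0373). Ube2m, the other NEDD8 E2, was at 2.83 CPM and no count with H3.3, 6.75 and 0.0948 with K27R, and 15.0 and 16.3 with R26K. R26K thus lay lowest for Ube2f and highest for Ube2m, whose H3.3 and K27R libraries overlapped. The log2 fold change of Ube2m in R26K against H3.3 was 3.46 ± 3.12 (edgeR adjusted p = 0.581). Ube2z, an E2 for ubiquitin and FAT10, was at 1.84 and 7.38 CPM with H3.3, 15.1 and 47.9 with K27R, and 22.4 and 22.7 with R26K. Ube2l6, the E2 of ISG15, had counts only in K27R replicate 1 (3.17 CPM) and R26K replicate 2 (1.57 CPM). These were chosen for mention after their values were seen.

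The remaining members varied within groups. Ube2o, a very large E2 that also acts as a ligase, was at 29.5 CPM and no count with H3.3, 13.3 and 17.0 with K27R, and 46.5 and 22.3 with R26K. Ube2q2 was at 1.84 and 83.0 CPM with H3.3, 18.3 and 24.8 with K27R, and 46.3 and 42.3 with R26K, so its H3.3 replicates enclosed all other libraries. Ube2u was at 10.02 and 49.8 CPM with H3.3, 22.4 and 5.21 with K27R, and 14.8 and 9.001 with R26K. Ube2q1 stayed at or below 2.36 CPM in every library, and Ube2d2b at or below 0.0948 CPM.

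The rest of the relay was read from lists of E2 enzymes named otherwise, E1 enzymes, modifiers and E3 partners. Of 8 tested E2 enzymes without the Ube2 symbol, none passed in edgeR in any comparison. An unadjusted p under 0.05 was reached by 4 in R26K against H3.3 (3 higher, 1 lower), and DESeq2 called 2 higher and 1 lower there, beside 21.7% and 18.1% of all genes. The most abundant, Cdc34, a cullin E2 closely related to Ube2r2, was at 29.8 and 21.8 CPM with H3.3, 28.1 and 5.31 with K27R, and 234 and 229.8 with R26K (log2 fold change against H3.3 3.17 ± 0.85, edgeR adjusted p = 0.180; DESeq2 0.0033). With the GC and length correction this was -0.11, and the value of K27R against R26K, -3.79, became -0.67. Of 8 tested E1 genes none passed in edgeR. In R26K against H3.3, 1 was higher and 1 lower at an unadjusted p under 0.05, beside 21.7% of all genes in either direction. DESeq2 called 1 lower, beside 418 lower of all 9012 genes with an adjusted p. The most abundant, Nae1, of the NEDD8 E1, was at 839 and 984 CPM with H3.3, 711 and 1022 with K27R, and 420.2 and 319 with R26K. Of 11 tested genes for ubiquitin and related modifiers none passed in edgeR or DESeq2 and none had an unadjusted p under 0.05 in any comparison. In R26K against H3.3, 1 of the 11 had a log2 fold change above 0. Beside it stand 6535 of all 10667 tested genes, and 3202 of the 6142 that averaged at least 10 CPM. Their median was -0.81, beside 0.66 for all tested genes and 0.08 for all those averaging at least 10 CPM. Of 54 tested E3 partners 1 was called, lower in R26K than in H3.3: Skp1a, a subunit of cullin ligases, fell to 429.6 and 387 CPM from 1383 and 1290.0 (-1.71 ± 0.22, edgeR adjusted p = 0.0448), with 1068 and 1278 CPM in K27R. Its call was lost without either H3.3 library (adjusted p = 0.0568 and 0.0663) or either K27R library (0.108 and 0.114), in a fit of only these 2 groups (0.0705), with RLE scaling (0.0502) and with the GC and length correction (0.0509). In that comparison 9 were higher and 3 lower at an unadjusted p under 0.05, or 22.2% against 21.7% of all genes, and DESeq2 called 10 higher and 2 lower of 52, or 23.1% against 18.1%. In the other comparisons none of the 54 passed in edgeR. At an unadjusted p under 0.05, 4 were higher and 1 lower in K27R against H3.3, and 5 higher and 7 lower in K27R against R26K, beside 7.12% and 13.2% of all genes. DESeq2 called 2 higher and 1 lower, and 2 higher and 4 lower, of 51 each, beside 7.8% and 8.57%.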

How the data were processed

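Libraries were made from egg RNA with the SMARTer Ultra Low and Nextera kits and read as single 50-base reads, per the labels. The submitters' processing notes name mm10 and the tools featureCounts, SAMtools 1.3, TopHat2 2.1.0 and cutadapt 1.9.1. For annotation, strand setting and multiply mapped reads, the setting is not stated in those notes or labels. The authors deposited whole-number read counts per gene symbol, without normalization, in 6 columns matched to samples by title.

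CPM used trimmed mean of M values (TMM) scaling. Genes were kept by filterByExpr, and the quasi-likelihood test of edgeR 4.0.16 in R 4.3.3 was applied across all 6 libraries with 3 group means and 3 residual degrees of freedom, two-sided, adjusted by Benjamini-Hochberg over 10667 genes with a threshold of 0.05. SE was obtained from the F statistic, as |log2 fold change|/√F. Scripts were tested on simulated data. DESeq2 1.42.0, other scalings and filters, a replicate block, robust spread, a fit of the compared groups only and leaving out each library were alternatives. Thinning and the GC and length correction (loess per library over genes of at least 50 CPM, added to the offsets) were added after the data were seen. Members and lists were chosen with earlier results of these data known. Values by library were to be given for called members, members averaging at least 50 CPM and the smallest p of other role groups; from other lists, for called genes or the most abundant. A few of these genes are not reported here by name; counts over the members include them. Shared 50-base words were exact matches, on either strand, between the GENCODE M21 basic transcripts of a gene and all transcripts of other genes. Gene positions are those of GENCODE M21 on mm10.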

Additional observations from a re-analysis of the deposited data

How the results depend on the processing

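The number of E2 genes called was 0 in each comparison, and it was also 0 with RLE and upper-quartile scaling, a filter of 10 CPM on the mean, robust spread, a fit of only the groups compared, thinning, and the GC and length correction. With the replicate number as a block it was again 0 in all 3 comparisons. Deviations of same-numbered libraries from their group means had correlations of -0.009, 0.069 and 0.018 over 2858 genes of at least 50 CPM. These values do not cover lower genes and cannot show a shared shift of only part of the genes. Beyond the block and these correlations, a batch shared by replicate number was not tested. DESeq2 called 8 members in R26K against H3.3, 1 in K27R against H3.3 and 3 in K27R against R26K, and edgeR without a filter 1 in R26K against H3.3 (Ube2d3). Leaving out a library gave 0 to 1 calls in R26K against H3.3, 0 in K27R against H3.3 and 0 to 1 in K27R against R26K; the 1 call in each was Ube2d3, without R26K replicate 1. The block did let Cdc34 pass in K27R against R26K (-4.13, edgeR adjusted p = 0.037), where the GC and length correction gave -0.67 in place of -3.79. The count of all genes called in R26K against H3.3, 66, became 1630 with DESeq2, 241 without a filter, 157 with the 10 CPM filter, 260 with the block, 0 in the fit of only these groups, 28 with the GC and length correction, and 1 to 193 without a library (1 without either K27R library). The GC and length correction, whose median over all tested genes in R26K against H3.3 was 0.19 in place of 0.66, reversed Ube2g2 (-0.38) and Cdc34 (-0.11) in R26K against H3.3; both are single-gene values that had not passed. Ube2c, near 0 in both comparisons with R26K, changed sign with the block (0.07) and without H3.3 replicate 2 (0.73) in R26K against H3.3, and without K27R replicate 2 (-0.12) in K27R against R26K; leaving out a library gave -0.56 to 0.73 and -0.12 to 0.25. Of 301 alternative values for 19 gene results, these 5 reversed, 15 passed the test where the reported value did not, and 7 no longer passed, all 7 for Skp1a. The cause was not tested. Members under about 20 CPM are the least certain, since many genes of that level had no count in H3.3 and in K27R replicate 2. K27R replicate 1, of like depth, lacked 5.6% of them, and the deeper R26K libraries lacked 1.7% and 1.3%. These shares were taken without thinning, and the part of depth in them was not tested.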
